A study of Mus musculus with 10 samples.

Results

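Heat shock proteins and cytosolic chaperones were followed in the kidney of old mice on 2 diets. The group was a list of 39 genes, and a gene was read where the array annotation paired a probe set with its symbol and no other. Of the 39 genes, 37 were named in this way, of 18193 named genes in all, and Hsp90ab1 and Hsf1 were not analysed here. All 37 passed the filter on low signal, 112 signal units as the mean log2 signal over all arrays, Hspb7 only through its restricted mice. The kidneys came from male C57BL/6 mice, with 5 mice on a control diet and 5 on a calorie-restricted diet, all 30 months old and each measured on an array of its own. No further allele, transgene or drug was given in the labels, and how severe the restriction was and how long it lasted is not given in the sources used here.

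Chaperones bind unfolded proteins and help them to fold, to be repaired or to be degraded. Hsp70 proteins hold short unfolded stretches in a cycle driven by ATP. J-domain proteins bring substrates to them, and BAG proteins and the Hsp110 family help them to release what they bound. Hsp90 completes the folding of kinases and steroid receptors with the help of co-chaperones, small heat shock proteins keep unfolded proteins from aggregating, and TRiC is a ring that folds actin and tubulin. In stress, heat shock factor 1 binds inverted repeats of GAA before many of these genes and raises their transcription. The kidney is known for strong chaperone expression in its medulla, where salt and urea are high.

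The bases before the transcription start were searched for the heat shock element, because it is the feature by which many members are known to be switched on together. A pair of inverted units, GAANNTTC or TTCNNGAA, was looked for in the 250 bases upstream; each of these reads as itself on the other strand. RefSeq windows were matched for 31 of the 37 members. The pair was found in 13 of these, 41.9%, against 3932 of 27025 genes, 14.5%. A gene was counted if the window of any of its starts held the pair. The shares were not adjusted for the number of starts per gene. A longer form, the pair followed after 2 further bases by 1 more unit in the opposite direction, in either orientation, contains the pair and was found in 3 of 31 members, 9.68%, against 139 of all genes, 0.514%. The 3 were Dnajb6, Hspd1 and Hspe1. A match is a description of letters and not a binding site. The windows shown are of the inducible Hsp70 pair and Hspb1, which varied most among control mice, and of members with the longer form. Those of the 3 members that passed the main test of diet are shown as well. The windows run 5' to 3' on the strand of the gene and end at the last base before the start unless stated. Matches are in capitals. All are RefSeq sequence of build GRCm38.p6.
Hspa1a, chr17:34972157-34972286, minus strand: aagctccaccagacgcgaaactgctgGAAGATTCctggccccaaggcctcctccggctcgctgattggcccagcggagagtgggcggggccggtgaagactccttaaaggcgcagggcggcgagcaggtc
Hspa1b, chr17:34959239-34959368, minus strand: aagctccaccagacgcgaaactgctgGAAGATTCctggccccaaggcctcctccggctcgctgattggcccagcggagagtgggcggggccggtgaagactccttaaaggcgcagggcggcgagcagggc
Hspb1, chr5:135887789-135887918, plus strand: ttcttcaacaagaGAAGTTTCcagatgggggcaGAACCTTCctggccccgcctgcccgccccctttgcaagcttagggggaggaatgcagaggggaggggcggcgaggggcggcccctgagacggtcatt
Hspe1, chr1:55088054-55088083, plus strand: gtccgTTCTAGAACCTTCCGGAAggccccg
Dnajb6, chr5:29735847-29735876, plus strand: tccgaGAATCTTCCGGAAcgctagaccagc
Dnajb4, chr3:152193846-152193875, minus strand: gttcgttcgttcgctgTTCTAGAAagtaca
Hspb7, chr4:141420649-141420778, plus strand: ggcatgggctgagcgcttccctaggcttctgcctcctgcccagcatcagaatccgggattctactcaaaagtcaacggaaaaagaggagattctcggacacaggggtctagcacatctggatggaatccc
Bag1, chr4:40948295-40948424, minus strand: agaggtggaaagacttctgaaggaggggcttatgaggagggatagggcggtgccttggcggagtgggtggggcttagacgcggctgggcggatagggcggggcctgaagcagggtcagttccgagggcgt

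In the windows of Hspa1a and Hspa1b the match began 104 bases before the start, and 247 of 250 upstream bases were equal in these neighbouring Hsp70 genes. Hspb1 held 2 matches in its window. The windows of Hspe1 and Dnajb6 are 30 bases around the longer form, which began 89 and 46 bases before their starts. Hspe1 and Hspd1 encode the co-chaperonin and chaperonin of mitochondria and are read in opposite directions from starts 216 bases apart, so their matches are the same letters. A further Hspd1 start in the table, on the other side of the Hspe1 start, had no match in its window. The Dnajb4 window is 30 bases before the downstream of its starts and lies inside the gene. The upstream Dnajb4 start had no match in its 250 bases. The 130-base windows of Hspb7 and Bag1 held no match of these letters.

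The arrays differed in a sign of RNA quality, the excess of signal at the 3' end of a transcript. The log2 ratio of 3' to 5' signal of Gapdh and Actb was 0.91, 0.76, 0.94, 1.39 and 1.25 in controls 1 to 5. In calorie-restricted mice 1 to 5 it was 2.21, 2.01, 1.75, 1.24 and 1.16, higher by 0.62 on average (exact permutation p = 0.0476, 2-sided, n = 5 a group). Leaving out a single array among mice 1 to 3 of either diet gave 0.0714 to 0.0794 by that exact test. Replicates 4 and 5 of both diets had like ratios, with means of 1.32 and 1.20, and values from these 4 arrays are given beside the results. The proximal tubule carrier Slc34a1 averaged 21881 ± 2357 signal units in controls. Of the proximal tubule markers, 5 of 8 rose under restriction, among them Kap by 0.74 and Acsm2 by 0.69 on the log2 scale. The mean level of that list, relative to the control mean, ran from −0.26 to 0.19 in controls and from 0.33 to 0.55 in restricted mice. The macrophage gene Mpeg1 (−1.02), the adipocyte gene Fabp4 (−0.77) and the podocyte gene Wt1 (−0.71) were lower, and the taurine carrier Slc6a6 (0.41) and the red cell gene Slc4a1 (0.64) were higher. Each was the only called gene of its list, among 5 macrophage, 2 adipocyte, 4 podocyte, 3 osmotic and 2 red cell genes tested. Of the other macrophage genes, Csf1r gave 0.017, Adgre1 −0.19, Cd68 −0.39 and C1qa −0.70, none of them called. In replicates 4 and 5 alone Kap was 0.65, Acsm2 0.60, Mpeg1 −1.17, Fabp4 −0.45, Wt1 −0.72, Slc6a6 0.16 and Slc4a1 0.20, and Mpeg1 alone of these passed the test. Nfat5, of the same osmotic list as Slc6a6, gave −0.35 (adjusted p = 0.116). The part of these cell types in the chaperone values was not tested.

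For most chaperone genes no difference between the diets passed the test against the spread among mice. With limma and Benjamini-Hochberg adjustment over 22519 probe sets, 3 of 37 members passed an adjusted p of 0.05: Hspb7 and Bag1 rose and Dnajb4 fell. Over all named genes tested the test called 6.1%, with 3.08% higher and 3.02% lower, so 3 of 37 is near the background. Signals are MAS5 intensities, and a difference is the log2 signal under restriction minus that of controls, given with its standard error. A gene was read by its brightest probe set, and counts of members refer to those sets. The difference was above 0 for 16 members and below 0 for 21, with a median of −0.023 beside −0.0052 for all genes. The median size of the difference, regardless of sign, was 0.15 for members and 0.19 for all genes. An unadjusted p under 0.05 was reached by 8 members, 21.6%, and by 26.4% of all genes. Groups did not overlap for 3 members, Hspb7, Bag1 and Bag2, beside 7.49% of all genes. None of the 3 calls held once the signal ratio entered the fit as a covariate, under quantile normalization, or without any of control replicates 2 to 5 or restricted replicates 1 to 3, where 0 members were called. In whole kidney, fewer cells of a type and less RNA per cell cannot be told apart.

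**Figure D1:**
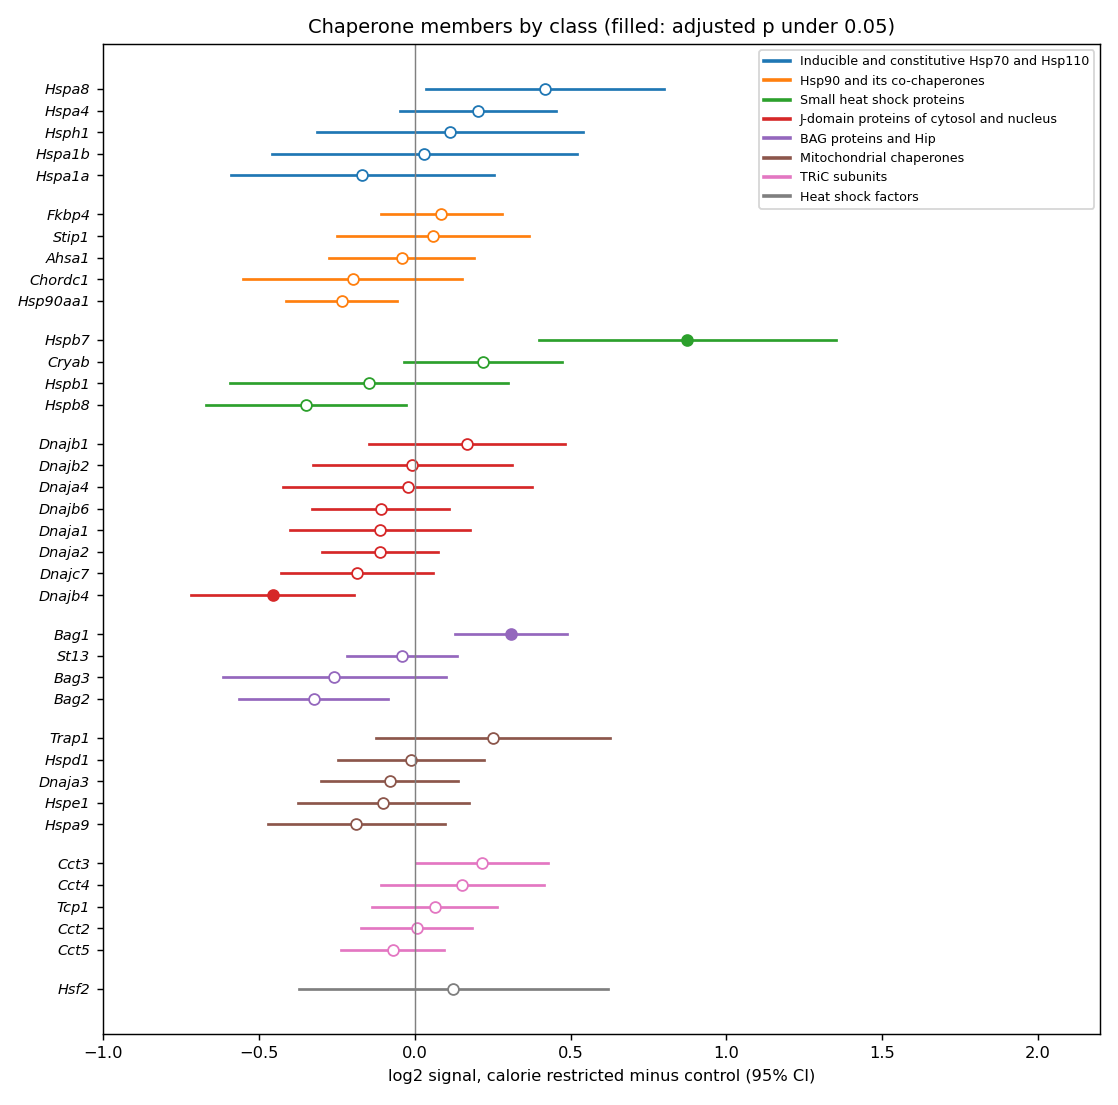
Log2 difference in signal, calorie restricted minus control, for the 37 chaperone genes (one row each, grouped and coloured by class), with the 95% confidence interval of the limma fit and n = 5 mice a diet. Filled points passed the adjusted p of 0.05 and are Hspb7, Bag1 and Dnajb4; the other 34 are open.

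The Hsp70 and Hsp110 class held 5 members and none passed the test; 1 had an unadjusted p under 0.05. Hspa8, the constitutive cytosolic Hsp70, had signals of 23081, 15608, 14649, 17481 and 28087 in controls 1 to 5. In restricted mice 1 to 5 they were 23532, 34132, 26490.3, 27204 and 19107. Restricted mouse 2 was the highest of all, control 5 stood above 4 of the restricted mice, and the diets overlapped. The difference was 0.42 ± 0.18 (95% interval 0.038 to 0.80, adjusted p = 0.154), and it was 0.041 in replicates 4 and 5 alone. Under quantile normalization it was 0.11. The other 3 Hspa8 probe sets, less bright, gave −0.21, 0.060 and 0.0070. Hspa4, an Hsp110 relative that acts as a nucleotide exchange factor, stood at 1461, 1810.0, 1793, 1977 and 1351 in controls and 2098, 1909, 2004, 1736 and 1840.2 under restriction, a difference of 0.20 ± 0.12 (adjusted p = 0.285). The stress-inducible Hsp70 genes were Hspa1a, with −0.17 (adjusted p = 0.624), and Hspa1b, with 0.031 (adjusted p = 0.947). Their intervals ran from −0.59 to 0.25 and from −0.46 to 0.52. In replicates 4 and 5 alone Hspa1a differed by −0.82 (adjusted p = 0.0802), and with the covariate by −0.54; leaving out single arrays gave −0.27 to −0.0091. Probes for these nearly identical genes may bind both transcripts. Hsph1, the inducible Hsp110, gave 0.11 (adjusted p = 0.759) by its brightest probe set and −0.46 by the other.

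Hspb1, Hspa1b, Hspa1a and Hsph1 had the widest spread of signal among control mice of the 37 members. Hspa1a signals in controls 1 to 5 were 515, 483, 492, 848 and 985, with controls 4 and 5 far above the others. Restricted mice stood at 628, 549, 619.9, 565 and 473, all below controls 4 and 5. Hspa1b gave 2702, 3509, 2452, 5274 and 5486 in controls and 4268, 4512, 4728, 3005 and 2741 under restriction. Here controls 4 and 5 were again the highest of all 10, and restricted mice 4 and 5 were below restricted mice 1 to 3. The other Hspa1b probe sets, less bright, gave diet differences of −0.42 and −0.26. Controls 4 and 5 were the highest in these as well, but the restricted mice did not split in that way. Hspb1, the small heat shock protein Hsp25 that protects the actin skeleton, gave 2719, 1662, 1936, 3421 and 4043 in controls and 1856, 2591, 2336, 2549 and 2556 under restriction. The SD of log2 signal among controls was 0.54 for Hspb1, 0.54 for Hspa1b, 0.49 for Hspa1a and 0.45 for Hsph1, while the median member had 0.16. Other inducible members spread less, with 0.20 for Dnajb1 and 0.12 for Hsp90aa1, below the constitutive Hspa8 at 0.40. Among restricted mice it was 0.20, 0.36, 0.17 and 0.31, with a median member of 0.20.

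**Figure D2:**
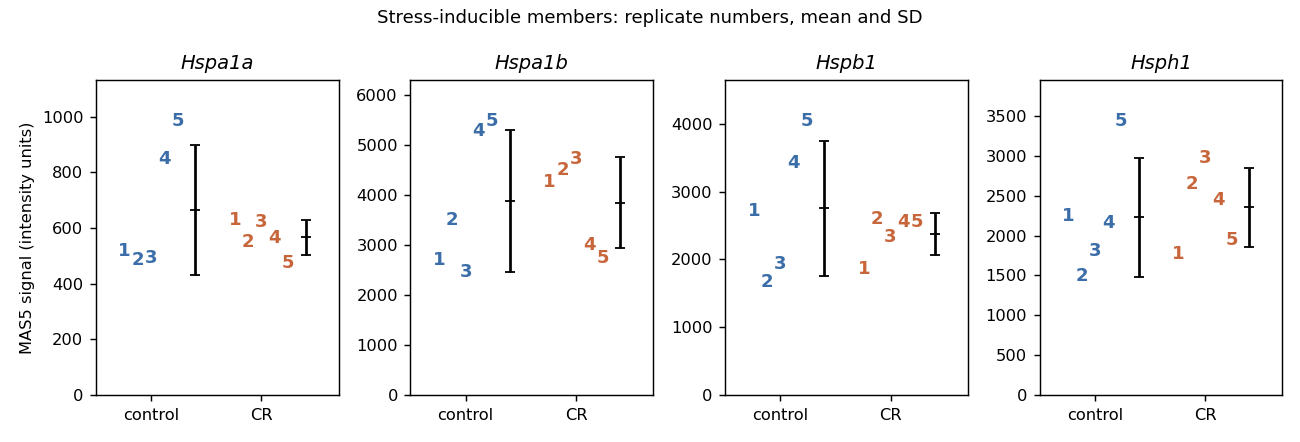
MAS5 signal (intensity units, axis from 0) of Hspa1a, Hspa1b, Hspb1 and Hsph1 in each mouse; digits are replicate numbers, and bars give the mean and SD of 5 mice a diet. Controls 4 and 5 lie above controls 1 to 3 for Hspa1a, Hspa1b and Hspb1, and control 5 for Hsph1.

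Controls 4 and 5 also had the highest 3' to 5' ratios of the controls, 1.39 and 1.25. They lay above controls 1 to 3 without overlap for 7 of 37 members, 18.9%, beside 17.7% of all genes, and below for 6 members, 16.2%, beside 12.5%. The steps were 0.91 for Hspa1b, 0.88 for Hspa1a and 0.85 for Hspb1. The other 4 higher members were Hsf2 (0.48), Hspb8 (0.22), Cct3 (0.22) and Bag1 (0.072). The mean levels of the macrophage, podocyte, thick limb, osmotic response and immediate early lists were also higher in controls 4 and 5 than in controls 1 to 3. The other marker lists did not show this on both arrays. Among them, controls 4 and 5 gave −0.26 and 0.077 for proximal tubule and −0.16 and 0.14 for endothelium. For immediate early genes, quickly induced transcription factors, the mean log2 level relative to the control mean was 0.37 and 0.36 in controls 4 and 5. It was −0.12, −0.24 and −0.37 in controls 1 to 3, and −0.60 to −0.32 in restricted mice. Of the 5 genes tested in that list 0 were called between the diets, with differences from −0.050 for Junb to −0.77 for Fos (limma adjusted p = 0.0664). In replicates 4 and 5 alone, Hspa1b differed by −0.91 between the diets (limma adjusted p = 0.0166, 2 mice a group), against 0.031 over all mice. That value compares the 2 controls with the highest signals, and the part of RNA quality in it was not tested.

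Of the Hsp90 class, 5 of 6 genes were measured and none passed the test; 1 had an unadjusted p under 0.05. Hsp90aa1, the inducible cytosolic Hsp90, had signals of 6410.0, 6102, 5232, 5827 and 6450.5 in controls and 5127, 5124, 5407, 4699.8 and 5116 under restriction. Restricted mice had the lower mean, with some overlap, and the difference was −0.23 ± 0.083 (95% interval −0.41 to −0.056, adjusted p = 0.0980). It passed only when arrays were centred on their medians, at −0.33 (adjusted p = 0.0420), a scaling that moved the median of all genes to −0.10. The other 2 tested probe sets of the gene gave −0.14 and 0.016. Chordc1, an Hsp90 co-chaperone with zinc-binding domains, stood at 1745, 1292, 1479.8, 1421 and 2002 in controls and 968, 1229, 1408, 1726 and 1647 under restriction. Restricted mice 1 to 3 lay below mice 4 and 5, and the diets differed by −0.20 ± 0.16 (adjusted p = 0.467). Stip1, which bridges Hsp70 and Hsp90, gave 0.058, the ATPase activator Ahsa1 −0.042, and the immunophilin Fkbp4, a partner of steroid receptors, 0.086. Fkbp4 had the smallest spread among controls of any member, an SD of 0.032.

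The small heat shock proteins held the member with the largest difference of the whole list. Hspb7, known for its role in heart and skeletal muscle, had signals of 119, 83.4, 106, 62.3 and 106 in controls 1 to 5. In restricted mice 1 to 5 the signals were 179, 183, 188, 130.4 and 179. Every restricted mouse was above every control, with restricted mouse 4 nearest to them. The mean went from 95.3 ± 22.5 to 172 ± 23.5 (SD, n = 5), a rise of 0.87 ± 0.22 (95% interval 0.40 to 1.35, adjusted p = 0.0375). This was a dim probe set: the control mean lay under the median of each array, 115 to 136, and under the filter of 112. It was tested only because restricted mice were high, so it had to differ, and the size of the step from a level below the filter is uncertain. The other 2 Hspb7 probe sets were below the filter, and the brighter of them, with 91.1, 86.4, 123, 99.9 and 77.0 in controls and 114, 89.4, 124, 80.5 and 85.0 under restriction, showed no such gap. The difference was 0.91 in replicates 4 and 5 alone (adjusted p = 0.336) and 0.86 with the ratio as a covariate (adjusted p = 0.267). Both fits used the same filtered probe set, so they add no support. Of 8 striated muscle markers, 7 were below the filter and Ckm differed by 0.0099; Acta1 averaged 18.9 ± 22.6 in controls and 12.9 ± 3.85 under restriction. Smooth muscle markers had 0 of 5 calls and 0 with an unadjusted p under 0.05.

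The other 3 small heat shock proteins did not pass. Hspb8, which works with Bag3 in the selective degradation of damaged proteins, had 324, 272, 290.1, 354 and 334 in controls and 258, 224, 203, 319 and 240.3 under restriction, a difference of −0.35 ± 0.15 with overlap (adjusted p = 0.159). Its other probe sets gave 0.026 (adjusted p = 0.949) and −1.10 (adjusted p = 0.123). The set at −1.10 passed the filter on low signal only through its controls, so it had to differ and adds no support. The signals of that set ran from 147 to 217 in controls and from 29.8 to 192 under restriction. Cryab, the alpha B-crystallin chaperone, had 1679.7, 2409.5, 2159.6, 2355 and 2573 in controls and 2718, 2709.5, 2671, 2222 and 2594 under restriction. The difference was 0.22 ± 0.12 (adjusted p = 0.255), with restricted mouse 4 well below the rest of its group. A second tested Cryab probe set, nearly as bright, gave 0.51 ± 0.18 (adjusted p = 0.0881). There restricted mice 1 to 3 lay above every control, and mice 4 and 5 within the range of the controls. Hspb1 differed by −0.15 (95% interval −0.59 to 0.30, adjusted p = 0.696).

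**Figure D3:**
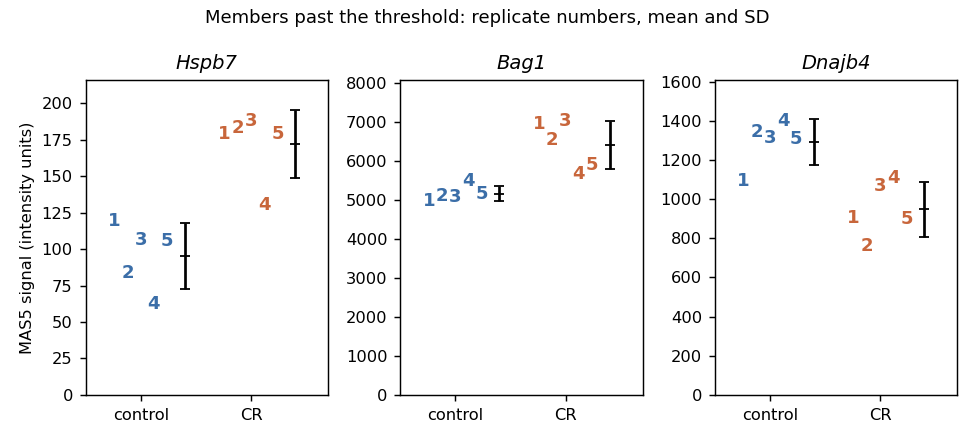
MAS5 signal (intensity units) in each mouse for the 3 members past the threshold, with the mean and SD of 5 mice a diet. Hspb7 and Bag1 separate the diets without overlap; for Dnajb4 control 1, at 1093, lies below restricted mouse 4, at 1109.

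Among 8 J-domain proteins of cytosol and nucleus, read by their brightest probe sets, 1 fell, none rose, and 7 had a difference below 0. Dnajb4, a relative of Dnajb1 that directs Hsp70 to damaged proteins, had signals of 1093, 1345, 1312, 1399.9 and 1309 in controls and 901, 759, 1067, 1109 and 899.7 under restriction. All restricted mice were below controls 2 to 5, and only control 1 overlapped them. The mean went from 1292 ± 117 to 947 ± 142, a fall with a log2 difference of −0.46 ± 0.12 (95% interval −0.72 to −0.19, adjusted p = 0.0435). A second, dimmer probe set of Dnajb4 was also called lower, at −1.57 ± 0.35 (adjusted p = 0.0254), but it passed the filter of 112 only through its controls, so it had to differ and adds no support. Its signals were 189.7, 262, 211, 206 and 156 in controls and 45.4, 32.9, 68.8, 139.6 and 103 under restriction, lowest in restricted mice 1 to 3, those with the highest 3' to 5' ratio. The remaining probe set gave 0.24 ± 0.14 in the opposite direction (adjusted p = 0.304). The brightest set differed by −0.44 in replicates 4 and 5 alone (adjusted p = 0.222) and by −0.38 with the covariate (adjusted p = 0.324), and neither passed.

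None of the other 7 J-domain members had an unadjusted p under 0.05 by its brightest probe set. Dnajc7, which binds both Hsp70 and Hsp90, gave 3049.9, 2683, 2594, 3288 and 2959 in controls and 2634, 2056, 2533, 2533 and 3132 under restriction, a difference of −0.18 ± 0.11 (adjusted p = 0.322). Dnaja2, a partner of constitutive Hsp70, gave 7305, 7026, 7414, 6466 and 6711 in controls and 6174, 5702, 6215, 7244 and 7079 under restriction, a difference of −0.11 ± 0.087 (adjusted p = 0.439). Its other probe sets gave −0.59 (adjusted p = 0.0989), −0.14 and 0.60 (adjusted p = 0.135). Dnajb1, the stress-inducible partner of Hsp70 and the only one of the class above 0 by its brightest probe set, gave 0.17 (95% interval −0.15 to 0.48). The other Dnajb1 probe set gave −0.30 ± 0.13 (adjusted p = 0.151). Dnaja1 gave −0.11, Dnajb6, which suppresses aggregation of polyglutamine proteins, −0.11, Dnaja4 −0.023 and Dnajb2 −0.0074. Dnaja1, Dnaja2, Dnajb2 and Dnajb6 were each lower in restricted mice 1 to 3 than in mice 4 and 5, with steps of −0.41, −0.25, −0.21 and −0.25. These are steps of the brightest probe sets, and other sets did not all show them. A further Dnaja1 set gave 3620, 3906, 3842, 3299 and 3077 in restricted mice 1 to 5, the reverse order. A Dnaja2 set (968, 1024, 1181, 1058 and 1088) and a Dnajb6 set (816, 764, 916, 863 and 737) showed no split. Some other sets of these genes were lower in mice 1 to 3 as well.

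Of the 3 BAG proteins and Hip, 1 rose and none fell. Bag1, an exchange factor that links Hsp70 to the proteasome, had signals of 4974, 5093, 5085, 5479 and 5145 in controls and 6934, 6545, 7027, 5656 and 5885 under restriction. Every restricted mouse was above every control, and restricted mice 1 to 3 were above mice 4 and 5. The mean went from 5155 ± 192 to 6409 ± 616, a rise of 0.31 ± 0.084 (95% interval 0.13 to 0.49, adjusted p = 0.0463). In replicates 4 and 5 alone it was 0.12 (adjusted p = 0.628) and with the covariate 0.16 (adjusted p = 0.455). Bag2, an inhibitor of the ubiquitin ligase that works with Hsp70, had 562, 596, 708, 645 and 585 in controls and 456, 458, 503, 504 and 552 under restriction. Every restricted mouse was below every control, with a difference of −0.32 ± 0.11, but this missed the threshold at an adjusted p of 0.0904. Bag3, which directs damaged proteins to autophagy, had 943, 563, 830.3, 634 and 727 in controls and 561, 494, 836, 647 and 554 under restriction, a difference of −0.26 ± 0.17 (adjusted p = 0.347). St13, the Hsp70 partner Hip, gave −0.040 by its brightest probe set, while another of its probe sets fell, with a difference of −0.42 ± 0.11 (adjusted p = 0.0375).

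By their brightest probe sets, the 5 mitochondrial chaperones had no call and none with an unadjusted p under 0.05 in the same limma test. Hspa9, the matrix Hsp70, had 6979.7, 8294, 6648, 5753 and 5504 in controls and 5314, 5238, 4824, 7177 and 6607 under restriction, a difference of −0.19 ± 0.13 (adjusted p = 0.391). Hspd1, the chaperonin Hsp60, differed by −0.012 (95% interval −0.25 to 0.22), its co-chaperonin Hspe1 by −0.10 and Dnaja3, the J-domain partner of Hspa9, by −0.080. Trap1, the Hsp90 of mitochondria, had 3902, 4368, 3580.5, 5026 and 4261 in controls and 6854, 6687, 4964, 3435 and 3994 under restriction, a difference of 0.25 ± 0.18 (adjusted p = 0.386). Within the restricted diet the class split by mouse. Hspe1, Hspa9, Hspd1 and Dnaja3 were lower in mice 1 to 3 than in mice 4 and 5, with steps of −0.48, −0.43, −0.35 and −0.29, and Trap1 was higher by 0.72. Probe sets did not all show this: the other Trap1 set gave 3541, 4711, 4089, 5064 and 4456 in restricted mice 1 to 5, and a second Hspa9 set gave 6035, 6029, 5102, 5876 and 5468, neither with that split. The same 4 genes were lower in controls 4 and 5 than in controls 1 to 3, with steps of −0.25, −0.37, −0.29 and −0.22. In both diets their brightest probe sets were lower on the arrays with the higher 3' to 5' ratio. In replicates 4 and 5 alone their diet differences were 0.34, 0.29, 0.37 and 0.23, above 0 in each, and none passed the test.

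Counting all classes, restricted mice 1 to 3 lay above mice 4 and 5 without overlap for 10 of 37 members, 27%, beside 19.3% of all genes, and below for 12, 32.4%, beside 23.4%. These splits of mice were set after the ratios were known and are a description.

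**Figure D4:**
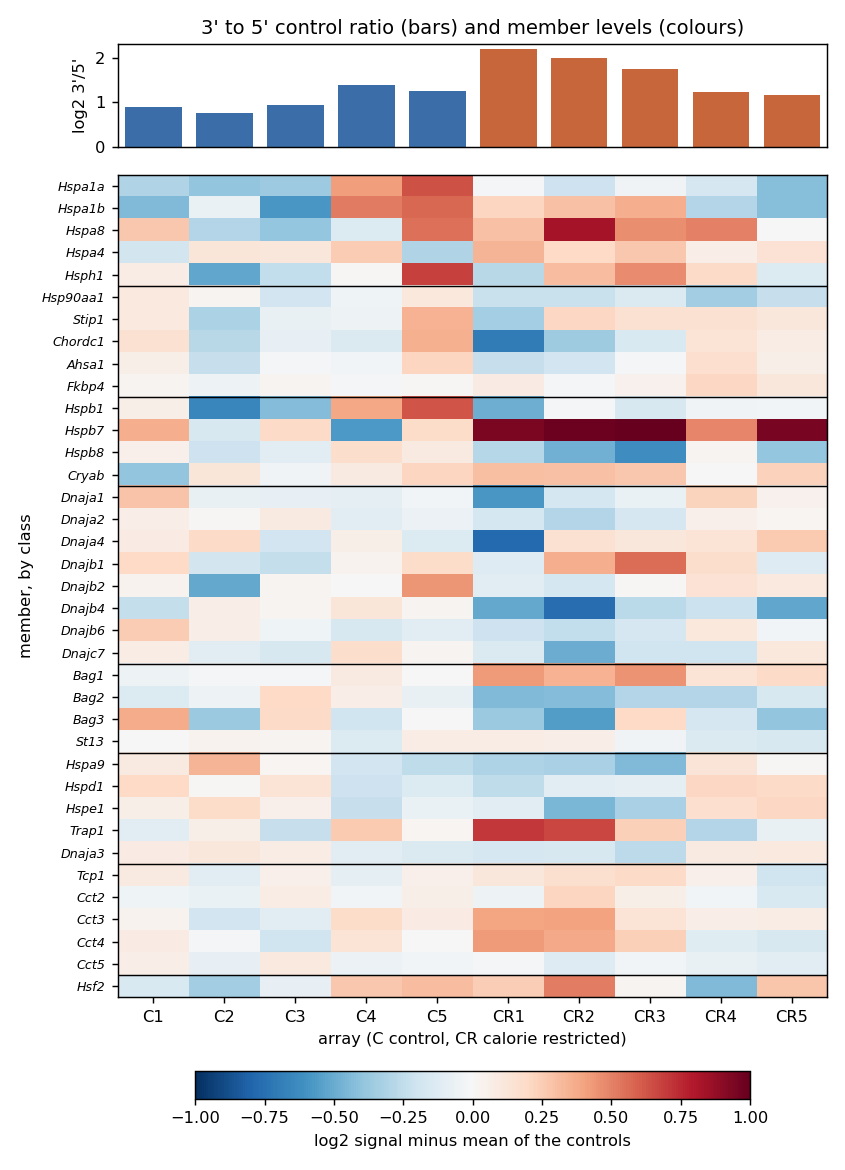
Log2 signal of each of the 37 members (rows, by class) on each array (columns, controls 1 to 5 then restricted mice 1 to 5), relative to the control mean of the gene; colours end at −1 and 1, and bars above give the log2 3' to 5' ratio of the array. Controls 4 and 5 are high for Hspa1a, Hspa1b and Hspb1, and restricted mice 1 to 3 are lower than mice 4 and 5 for Hspa9, Hspd1 and Hspe1.

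By their brightest probe sets, none of 5 TRiC subunits passed the test, 1 had an unadjusted p under 0.05, and 4 were above 0. Cct3 had 7893, 6754, 7145, 8737 and 8173 in controls and 10121, 10213, 8474, 8079 and 8119.8 under restriction, a difference of 0.22 ± 0.10 (adjusted p = 0.186). Its other tested probe sets gave −0.66, −0.15, −0.078 and 0.36. Cct4 had 5795, 5392, 4768, 6016 and 5436 in controls and 7327, 7095, 6439, 5037 and 4896 under restriction, with restricted mice 1 to 3 above mice 4 and 5, and a difference of 0.15 ± 0.12 (adjusted p = 0.454). Another Cct4 probe set, nearly as bright, gave −0.16 (adjusted p = 0.181), with every restricted mouse below every control and no such split. The remaining tested Cct4 sets gave 0.034 to 0.19. Tcp1, the first subunit of the ring, gave 0.064, Cct2 0.0069 and Cct5 −0.071. The other Cct2 probe sets gave −0.0089 and −0.30. Hsf2, a heat shock factor active in development and in proteasome stress, had 103, 90.1, 108, 138 and 142 in controls and 136, 164, 117, 84.5 and 139 under restriction, a difference of 0.12 ± 0.23 (95% interval −0.37 to 0.62, adjusted p = 0.772).

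The wider network of 56 further chaperone genes was read from the same fit. Of these, 53 were named and 49 tested, and 3 fell and 0 rose by limma. An unadjusted p under 0.05 was reached by 15, or 30.6%, beside 26.4% of all genes, and 9 of the 15 were lower. Of all named genes 3.02% were called lower. The median difference was −0.027, beside −0.0052 for all genes. The 3 were Vbp1, a prefoldin subunit that hands actin and tubulin to TRiC (−0.51 ± 0.11, adjusted p = 0.0255), the TRiC subunit Cct8 (−0.47 ± 0.12, adjusted p = 0.0406) and Clpx, which unfolds proteins for the matrix protease (−0.60 ± 0.15, adjusted p = 0.0366). Vbp1 signals were 2857, 3065, 2965, 2657 and 2523 in controls and 1844, 1646, 1856, 2223 and 2386 under restriction, without overlap. With replicates 4 and 5 alone the values of Vbp1, Cct8 and Clpx were −0.17, −0.15 and −0.081, and none passed. The lists without a call had as their member of smallest p Dnajb14 (0.66, adjusted p = 0.0515), Sugt1 of the Hsp90 partners (−0.40, adjusted p = 0.0537), Hspa13 (−0.18), Hspb2 (0.054) and the factor-binding gene Hsbp1 (−0.22).

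Probe sets of one gene often disagreed. Members had 98 probe sets, and 45 tested ones were not the brightest of their gene. Of these, 23, or 51.1%, had the same sign as the brightest. The test called 2 of them, those of Dnajb4 and St13 given above, beside 6.09% of all probe sets. For Hspb8, Hsph1 and Hspa8 a second probe set pointed the other way from the brightest, as the plot of probe sets shows. Probe sets of the s_at and x_at kinds may pick up related transcripts, so a value read from them is uncertain as to the gene, which holds for Hspa8, Dnaja2, Hspe1, Trap1, Cct2 and Cct4 here.

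**Figure D5:**
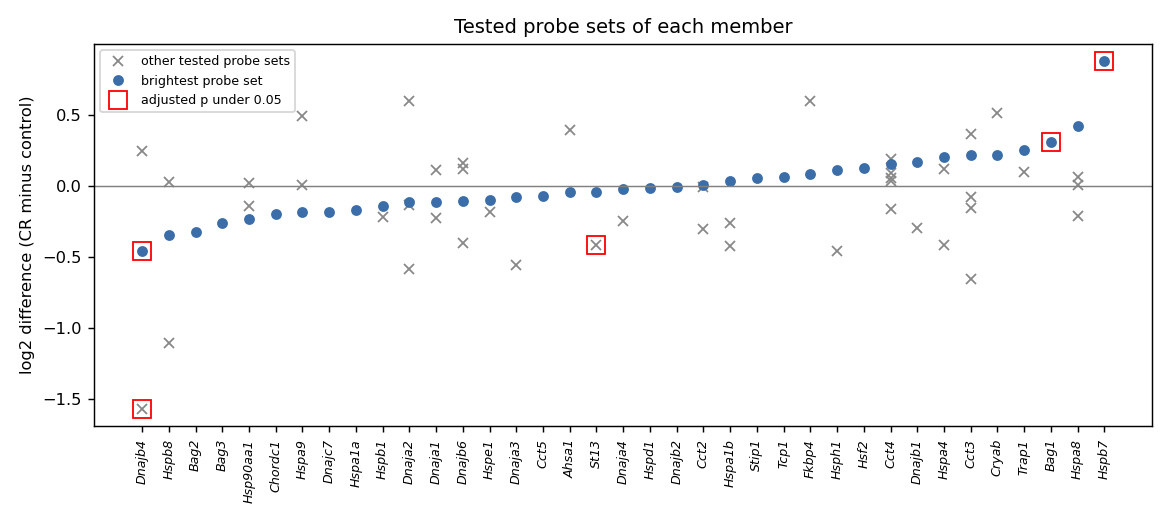
Log2 difference, calorie restricted minus control (vertical axis), for each tested probe set of the 37 members (horizontal axis, ordered by their brightest probe set); dots are the brightest, crosses the 45 others, and squares mark an adjusted p under 0.05. Of the crosses, 23 lie on the same side of 0 as their dot, and the lowest is the second Dnajb4 probe set at −1.57.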

How the data were processed

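Total RNA of 10 kidneys was hybridised to 1 Affymetrix array each. The deposited values are MAS5 signals, an intensity per probe set on a linear scale that the authors made with MAS5; the submitters' processing notes name Affymetrix Expression Console, with no version. The trimmed mean (2% off each end) was 500.003 on every array, which levels overall brightness only. Of 45101 probe sets, 64 were controls, 34945 had 1 gene symbol, 932 several and 9224 none. Signals below 1 were set to 1 (922 values, 0 among tested probe sets) before log2 was taken. Probe sets with a mean log2 signal of at least 6.81, the median, were tested (22519, for 12196 genes) with limma 3.58.1 in R 4.3.3 (lmFit, eBayes with trend, 2-sided) and Benjamini-Hochberg adjustment, threshold 0.05. The fit was tested on simulated data. A gene was read by its brightest probe set. All members are named. Values on every array are given for members past the threshold and, in each class, for up to 2 more with the smallest p; the arrays of Hspa1a, Hspa1b and Hspb1 and the windows of Hspb1, Hspe1 and Dnajb6 were added after their values were seen. From the other chaperone lists up to 4 genes past the threshold, or the 1 of smallest p, and from marker lists up to 2 called genes were named. Members, lists and tests were chosen with earlier results of these data known. The number of arrays limits the precision, and the p-values reflect how these single mice vary.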

Additional observations from a re-analysis of the deposited data

Results flagged for a closer look

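Each member was screened in each diet for a mouse far from the other 4. The measure was the gap in log2 signal to the nearest neighbour over the log2 range of the group. The cutoff was 0.71. Of 74 groups, 6 had such a mouse; chance gives about 1 in 20. Restricted mouse 1 was low for Stip1, at 563 against 771 to 823, and for Dnaja4, at 199 against 370.4 to 409.5. Restricted mouse 4 was low for Hspb7, at 130.4 against 179 to 188, and for Cryab, at 2222 against 2594 to 2718. Control 1 was high for Dnaja1, at 5249 against 4029 to 4227, and low for Dnajb4, at 1093 against 1309 to 1400.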

How the results depend on the processing

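In 59 values from 20 settings Hspb7, Dnajb4 and Bag1 kept their sign, but not their calls. Of 37 members, 3 were called, and 0 were called with no filter, under quantile normalization, with the 3' to 5' covariate and with the replicate number as a block (replicate block). Without the eBayes trend 1 was called (Hspb7), and with replicates 4 and 5 alone 1 (Hspa1b). Leaving out single arrays gave 0 to 3. It gave 0 without any of control replicates 2 to 5 or restricted replicates 1 to 3, and 2 without control 1. The stricter filter (top 30% by signal, where Hspb7 was not tested) gave 2, median centring 3, log2(signal + 50) 3, any tested probe set 4 and the mean of probe sets 2. Over the alternatives the adjusted p ran from 0.0281 to 0.336 for Hspb7, 0.0287 to 0.324 for Dnajb4 and 0.0285 to 0.628 for Bag1. Replicate numbers did not pair the mice (correlations of −0.14 to −0.087 between same numbers, and no array matched its own number best). Of the network, 3 were called, 0 with no filter, without trend, with the block and with the covariate, 1 under quantile normalization and with replicates 4 and 5 alone, 5 with the stricter filter and median centring, and 0 to 8 without single arrays. Of all probe sets, 1371 were called (659 higher, 712 lower), 287 with no filter, 751 under quantile normalization, 243 without trend, 127 with the block, 9 with the covariate, 198 with replicates 4 and 5 alone and 125 to 2481 without single arrays. Median centring called 1533, with 315 higher and 1218 lower. The difference in the 3' to 5' ratio was 0.49 to 0.75 without single arrays (exact permutation p = 0.0397 to 0.0794). The causes of these changes were not tested. Of the 34 uncalled members, 25 changed sign in at least 1 setting (82 of 677 values), the largest main difference among them being 0.25 in size, that of Trap1. With the 3' to 5' covariate, the sign turned for Hspa1b (−0.54), Hsph1 (−0.047), Chordc1 (0.083), Ahsa1 (0.066), Dnaja1 (0.19), Dnaja2 (0.060), Dnaja4 (0.31), Dnajb6 (0.10), Hspa9 (0.14), Hspd1 (0.27), Hspe1 (0.22), Trap1 (−0.25), Dnaja3 (0.13), Tcp1 (−0.047), Cct2 (−0.080), Cct3 (−0.022), Cct4 (−0.16), Hsf2 (−0.23), Hspb2 (−0.00040) and Hsbp1 (0.16). For the mean of a gene's tested probe sets, the sign turned for Hspa1b (−0.22), Hspa4 (−0.032), Hsph1 (−0.17), Ahsa1 (0.18), Dnajb1 (−0.065), Hspa9 (0.10), Cct2 (−0.10) and Cct3 (−0.062). Under median centring, the sign turned for Hspa1b (−0.066), Stip1 (−0.040), Fkbp4 (−0.012), Tcp1 (−0.034), Cct2 (−0.091) and Hspb2 (−0.044). Under quantile normalization, the sign turned for Hspa1b (−0.0054), Dnaja4 (0.0091), Dnajb2 (0.041) and Cct2 (−0.059). With replicates 4 and 5 alone, the sign turned for Hspa1b (−0.91), Hsph1 (−0.32), Stip1 (−0.015), Ahsa1 (0.016), Cryab (−0.036), Dnaja1 (0.20), Dnaja2 (0.12), Dnaja4 (0.24), Dnajb1 (−0.086), Dnajb6 (0.18), Hspa9 (0.29), Hspd1 (0.37), Hspe1 (0.34), Trap1 (−0.32), Dnaja3 (0.23), Tcp1 (−0.054), Cct2 (−0.11), Cct3 (−0.061), Cct4 (−0.20), Hsf2 (−0.37), Hspb2 (−0.11) and Hsbp1 (0.28). Leaving out single arrays turned the sign in at least 1 case for Hspa1b (−0.11 to 0.18), Hsph1 (−0.018 to 0.28), Stip1 (−0.022 to 0.16), Ahsa1 (−0.10 to 0.012), Hspb1 (−0.31 to 0.013), Dnaja1 (−0.19 to 0.0071), Dnaja4 (−0.094 to 0.17), Dnajb2 (−0.14 to 0.10), Hspd1 (−0.066 to 0.048), Cct2 (−0.045 to 0.047) and Hspb2 (−0.069 to 0.14).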
